A study of Homo sapiens with 5 samples.

Results

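NCI-H209 is an established human small-cell lung cancer (SCLC) cell line, and its transcriptome at rest is described here from the 3 control libraries of a study with 5 libraries in all. The members were every sample whose label gives untreated NCI-H209. They were grown in RPMI-1640 with fetal bovine serum at 10% and without human brain microvascular endothelial cells (HBMEC), and the 2 other libraries, from cells kept with HBMEC, were not analysed here. All 3 libraries came from the same line and the labels name no genetic change made for the study. The labels also do not say whether they came from separate cultures, so the spread between them may be technical. RNA was depleted of ribosomal RNA and sequenced as directional libraries, so RNAs without a poly(A) tail were also kept, and each read was assigned to a strand.

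SCLC is a fast-growing cancer with features of the neuroendocrine cells of the airway, which store peptides in dense-core granules and share much of their gene programme with neurons. Lines of SCLC that have this programme express INSM1, and a subset of them expresses the transcription factor NEUROD1. Lines without the programme are sorted by POU2F3, a tuft cell factor, or by YAP1, a coactivator of the Hippo pathway.

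The control libraries held 19157348, 17317045 and 19123555 counts on genes in replicates 1, 2 and 3, over 64837 gene entries. These counts were 30.7% to 33.6% of all reads, while 47.3% to 51.2% lay on no annotated exon of the strand counted. Reads over an exon on its opposite strand alone are among the latter. A further 7.05% to 7.75% mapped to several places and were not counted, and 8.13% to 8.48% did not map. Counts on the gene's own strand were 92.3% to 92.7% of own-strand and opposite-strand counts added together. A read over facing genes can enter both counts, so this is not a share of reads. A count of 3, taken as the floor, corresponded to 0.157 to 0.173 CPM (a count scaled to 1e+06 counts on genes), and it covers counting error only. Levels of different genes are compared as TPM, which divides each count by the length of the gene's exons before the same scaling.

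Of the 4 marker genes that define the label, 3 were expressed at levels that differed little between libraries. INSM1, the zinc-finger factor of neuroendocrine cells (GRCh38, chromosome 20, positions 20368121 to 20370949), stood at 739, 677 and 750 TPM, a mean of 722 ± 39.3 TPM (SD, n = 3). NCAM1, the neural cell adhesion molecule also known as CD56 (chromosome 11, positions 112961247 to 113278436), stood at 140, 146 and 129 TPM. SYP, synaptophysin of synaptic-like vesicles (chromosome X, positions 49187804 to 49200259), stood at 41.2, 41.5 and 38.4 TPM. The highest library exceeded the lowest by far less than 2-fold in each of these genes. CHGA, which encodes the granule protein chromogranin A (chromosome 14, positions 92923080 to 92935293), was listed at 0 counts in all 3 libraries. Its level could not be read, as the next paragraph describes.

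**Figure D1:**
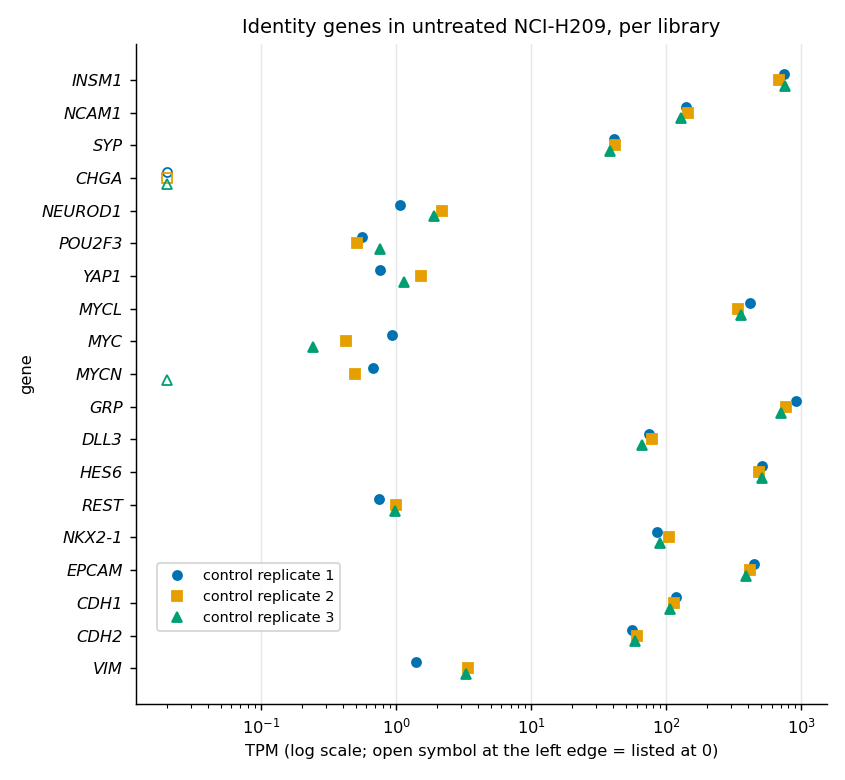
TPM of 19 genes of identity in each untreated library, on a log axis, with 1 symbol per library. INSM1, GRP and MYCL lie between 337 and 911 TPM in every library, NEUROD1, POU2F3, YAP1, MYC and MYCN lie at or below 2.18 TPM, and CHGA is listed at 0.

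Beside the genes of the primary assembly, the files listed 6057 entries that its annotation lacks. They were taken to belong to patch and haplotype sequences, though the exact sequences the authors aligned to were not seen. As background, a read that matches a gene and its copy on such a sequence maps to several places, and reads of that kind were not counted. Among 1049 protein-coding genes with a second entry, 826 did not exceed 3 counts in any library, or 78.7%, against 22.7% of the 18920 protein-coding genes with a single entry. Genes that every dividing cell uses were among them. All 5 ribosomal protein genes with a second entry (among them RPS9, RPS18, RPS25 and RPL7A) had at most 2 counts in any library, whereas all 72 with a single entry reached at least 1 CPM in each library. POLR2A, the largest subunit of RNA polymerase II, has a second entry too and was just past that limit with 2, 0 and 4 counts. CHGA lay in a run of neighbouring genes that were all listed at 0, including MOAP1, UBR7 and BTBD7, while GOLGA5 and LGMN on the other side of it had 902 and 674 counts in replicate 1. For some genes the reads were found at the second entry: HLA-C had 0 counts on the primary assembly and 621, 444 and 469 over 3 other entries. Whether reads shared with a second entry account for each low count was not tested. Genes with a second entry are left out of the counts of expressed and silent genes below, and where they are named their values are given as listed.

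**Figure D2:**
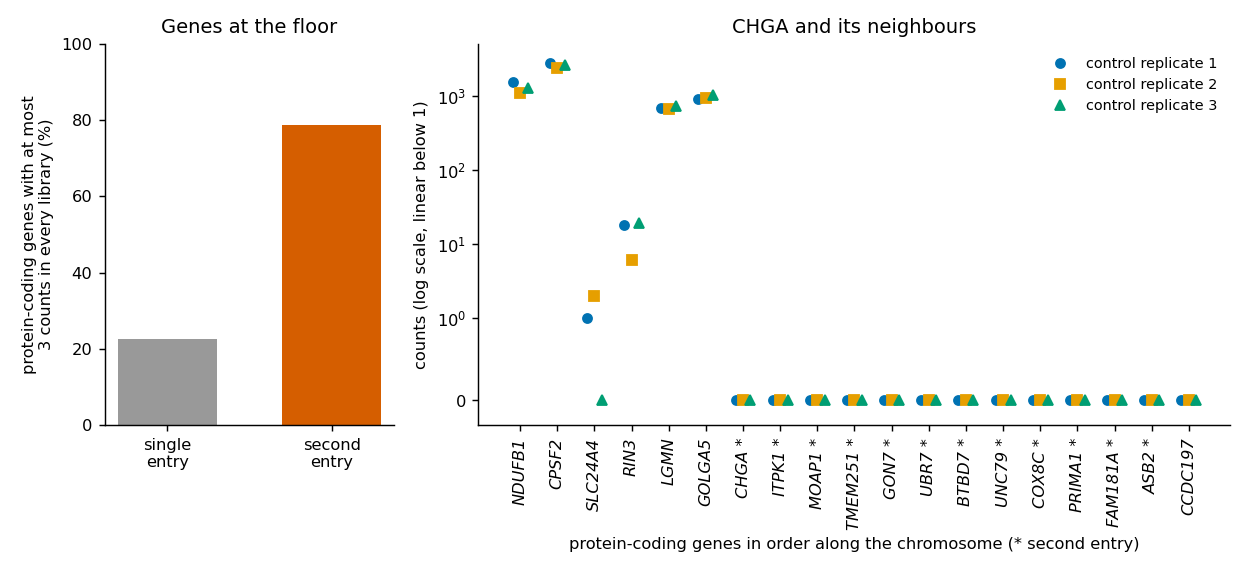
Left, the share of protein-coding genes with at most 3 counts in every untreated library, for genes with a single entry (22.7%) and with a second entry (78.7%). Right, counts per library of CHGA and its neighbours in chromosomal order, with second-entry genes starred. Every gene drawn from CHGA onward is at 0 in all 3 libraries.

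By reads, the largest share of the transcriptome belonged to nuclear protein-coding genes, with 87.4% ± 0.261 of counts (SD, n = 3). Long intergenic RNAs took 4.94% ± 0.545, most of it MALAT1, a nuclear RNA of the speckles, which alone held 3.09%, 3.89% and 3.64% of counts in replicates 1, 2 and 3. Genes of the mitochondrial genome took 3.86%, 2.54% and 2.25%, so that replicate 1 stood above the other libraries. The 10 most counted genes were MALAT1, RN7SL2, SNORD3A, MT-CO1, EEF1A1, MT-ND4, MT-CO3, MT-ND5, MIAT and GAPDH, and they held 7.62% to 8.34% of each library. RN7SL2, the RNA of the signal recognition particle, stood at 8898, 7243 and 10611 CPM. SNORD3A, the U3 small nucleolar RNA that acts in the processing of ribosomal RNA, stood at 8965, 4042 and 10677 CPM, with replicate 2 far below the others. MIAT, a long RNA known from retina and brain, stood at 2063, 2829 and 2724 CPM, with no such gap.

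Per length, histone genes led the nuclear protein-coding genes. HIST1H3B stood at 5175 ± 259 TPM, HIST1H1C at 4261 ± 211 TPM and HIST1H2BK at 3279 ± 482 TPM (SD, n = 3 each). Replication-dependent histone mRNAs end in a stem-loop in place of a poly(A) tail and are made in S phase. HIST1H1B, HIST1H1E, HIST1H4C, HIST1H3F, HIST2H2AC and HIST1H4D were also among the 12 highest genes, which the translation factor EEF1A1 (3042 ± 445 TPM), the glycolytic enzyme GAPDH (2776 ± 283 TPM) and RPS12 of the small ribosomal subunit (2099 ± 192 TPM) completed. Of 68 histone genes with a single entry, 48 (70.6%) reached at least 1 CPM in every library and 13 (19.1%) had at most 3 counts in each, near the 64.8% and 22.7% of all single-entry protein-coding genes.

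Of the 18920 protein-coding genes with a single entry, 12262 reached at least 1 CPM in every library (64.8%), 4288 were silent, with 3 counts or fewer in each library (22.7%), and 2370 lay between. The median over all of them was 9.05 TPM. A mean of at least 1000 TPM was reached by 52 genes and a mean of at least 100 TPM by 1137, while 9198 genes reached 10 TPM. These shares are the background for the lists that follow. All lists were chosen with earlier results of these libraries known, and none was tested.

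Most genes of the neuroendocrine list were expressed. Of 45 single-entry genes of the neuroendocrine list, 42 reached at least 1 CPM in every library, and the median was 72.4 TPM. Among its highest members were HES6 and ENO2. HES6, a helix-loop-helix factor that promotes neuronal differentiation, stood at 508, 487 and 506 TPM. ENO2, neuron-specific enolase, stood at 255, 379 and 380 TPM, lowest in replicate 1. Granule genes other than CHGA could be read: SCG3 stood at 256 ± 26.8 TPM, SCG2 at 186 ± 22.8 TPM and CHGB, which encodes chromogranin B, at 77.7 ± 1.58 TPM (SD, n = 3 each). Processing enzymes of peptide hormones were present too, with carboxypeptidase E (CPE) at 168 ± 23.5 TPM, PCSK2 at 93.4 ± 9.77 TPM and PCSK1 at 66.2 ± 1.25 TPM. NEFM, a neurofilament gene with a single entry, was at 0 counts in all 3 libraries. NEFL had 4, 2 and 2 counts and RET 71, 32 and 4. SOX2, SSTR2, TUBB3 and STMN2 reached 1 CPM in every library, but at means of only 1.86, 2.77, 3.15 and 3.26 CPM. MYT1 and SCG5 have second entries and were listed at 0 to 5 counts.

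Among the transcription factors used to sort SCLC, NEUROD1, POU2F3 and YAP1 were low. NEUROD1 stood at 1.05, 2.18 and 1.90 TPM. YAP1 stood at 0.749, 1.52 and 1.14 TPM and POU2F3 at 0.552, 0.512 and 0.759 TPM, so that NEUROD1 and YAP1 overlapped in their libraries. ATOH1, a further factor of neuroendocrine lineages, had 1, 2 and 0 counts. Of 10 tuft cell genes, 4 were silent, that is, at or under 3 counts in each library, among them IL25 and TRPM5 at 0 counts. The highest of that list was SOX9, a factor of many epithelial progenitors, at 33.4, 67.5 and 61.3 TPM, lower in replicate 1 than in the others.

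The MYC family was represented by a single member. MYCL (chromosome 1, positions 39895426 to 39902256) stood at 418, 337 and 357 TPM. MYC stood at 0.932, 0.425 and 0.240 TPM, from 16, 6 and 4 counts, and MYCN had 10, 6 and 0 counts. Among their partners, MAX, with which MYC proteins bind DNA, stood at 51.8, 54.5 and 43.5 TPM, and MXD1, an antagonist that competes for MAX, at 39.1 ± 7.13 TPM (SD, n = 3).

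Precursors of peptides were few and uneven. Of 29 single-entry neuropeptide and hormone genes, 9 reached at least 1 CPM in every library and 9 had at most 3 counts in each. GRP, gastrin-releasing peptide and a long-known growth factor of SCLC, stood at 911, 763 and 711 TPM. Behind GRP and SCG2 came neuromedin U (NMU) at 29.7 ± 1.27 TPM and VGF, a granule peptide precursor, at 17.7 ± 2.54 TPM (SD, n = 3 each). CRH, PDYN and OXT, which encode corticotropin-releasing hormone, prodynorphin and oxytocin, were at 0 counts in all 3 libraries, and CCK, which encodes cholecystokinin, had 1 count in each.

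Notch signalling opposes the neuroendocrine fate in the airway. Of 17 single-entry members of the Notch list, 16 reached at least 1 CPM in every library, but at a median of 5.50 TPM. Highest after HES6 were DLL3, an inhibitory ligand, at 74.2, 77.7 and 65.4 TPM, and JAG2, a ligand, at 60.2, 71.3 and 65.3 TPM. Receptors were lower: NOTCH2 stood at 8.14 ± 1.07 TPM, NOTCH1 at 2.16 ± 0.718 TPM and NOTCH3 at 1.86 ± 0.816 TPM (SD, n = 3 each). NOTCH1 had 20.2% of its reads on the opposite strand and belongs to a set of genes described at the end. HES1, a target of active Notch, stood at 5.50 ± 0.985 TPM. Within the same list HEY1 (37.96 ± 4.37 TPM) and NRARP (16.1 ± 3.35 TPM) stood above HES1. HEY2 (4.36 TPM), HEYL (3.39 TPM) and HES4 (1.76 TPM) stood below it. Whether Notch signalling was active in these cells was not tested. REST, the repressor of neuronal genes, stood at 0.900 ± 0.135 TPM, with 47.2% of its reads on the opposite strand. DLL1, HES5 and NOTCH4 have second entries and were listed at 0 to 1 counts.

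Of 18 genes for surface antigens studied in SCLC, 16 reached at least 1 CPM in every library. CD24, a mucin-like adhesion protein, stood at 1035, 753 and 747 TPM, highest in replicate 1. CD47, which signals to phagocytes, stood at 162, 246 and 231 TPM, lowest in replicate 1. FOLR1, the folate receptor, had 0, 3 and 3 counts.

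The line also expressed epithelial genes. All 20 members of the epithelial list reached at least 1 CPM in every library, at a median of 69.5 TPM. EPCAM, an epithelial adhesion molecule, stood at 447, 414 and 387 TPM. The splicing regulator ESRP1 followed at 300 ± 36.1 TPM, keratin 18 (KRT18) at 297 ± 46.4 TPM and E-cadherin (CDH1) at 113 ± 6.26 TPM (SD, n = 3 each). Of 20 mesenchymal genes, 12 reached at least 1 CPM in every library, but at a median of 1.26 TPM. The 3 highest were N-cadherin (CDH2) at 58.3 ± 2.51 TPM, which neurons also use, ZEB1 at 31.2 ± 7.45 TPM and SNAI1 at 9.75 ± 2.07 TPM. Vimentin (VIM) stood at 1.39, 3.38 and 3.28 TPM, lowest in replicate 1.

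The non-neuroendocrine list had a median of 1.31 TPM over 25 genes, with 14 at or above 1 CPM in every library. AHNAK led it at 62.3, 83.2 and 82.9 TPM, followed by ANXA2 at 63.0 ± 6.75 TPM and LGALS1 at 58.0 ± 8.52 TPM (SD, n = 3 each). CTGF, a secreted matricellular protein and a target of YAP1, had 27, 6 and 7 counts, highest in replicate 1. S100A16 was at 0 counts in all 3 libraries and has a single entry.

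Of the lung, the lineage factor NKX2-1 was expressed at 93.2 ± 10.2 TPM (SD, n = 3), while genes of mature alveolar and airway cells were mixed. Of 22 single-entry genes of those cells, 10 were silent, 7 reached at least 1 CPM in every library and 5 lay between. Silent members included SFTPB and SFTPC of surfactant and KRT14 and SCGB3A1, which were at 0, whereas SFTPA2 of surfactant had 57, 72 and 50 counts. The highest were TPPP3 at 77.3 ± 4.28 TPM, LAMP3 at 47.8 ± 4.41 TPM and ABCA3 at 17.8, 19.3 and 16.8 TPM. The reads that lay over SFTPB were all on the opposite strand.

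Cell cycle genes were expressed without exception among those that could be read. All 29 single-entry members of the proliferation list reached at least 1 CPM in every library, with a median of 112 TPM. TYMS, thymidylate synthase, stood at 674, 713 and 668 TPM. TOP2A, the topoisomerase of dividing cells, stood at 649, 654 and 652 TPM, and PCNA, the sliding clamp of DNA replication, at 480, 461 and 438 TPM. The highest library of these 3 genes exceeded the lowest by far less than 2-fold. MKI67 stood at 261 ± 5.71 TPM (SD, n = 3), and E2F2, which has a second entry, was listed at 0 to 2 counts.

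RB1, the retinoblastoma gene that is lost or mutated in most SCLC, was transcribed at 121, 122 and 108 TPM. RNA levels say nothing of the protein or of mutations. The inhibitor CDKN1B (p27) led its list at 314 ± 9.04 TPM, followed by CDK4 at 144 ± 16.8 TPM. CDKN2A (p16 and p14ARF) stood at 59.0 ± 6.75 TPM (SD, n = 3 each). Of the D-type cyclins, CCND3 stood at 17.6, 14.2 and 13.1 TPM, CCND1 at 2.21 ± 1.08 TPM and CCND2 at 0.159 ± 0.0946 TPM. CCND1 had 51.0% of its reads on the opposite strand. CDKN2B (p15) stood at 12.4 ± 0.324 TPM, with 60.8% of its reads on the opposite strand.

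**Figure D3:**
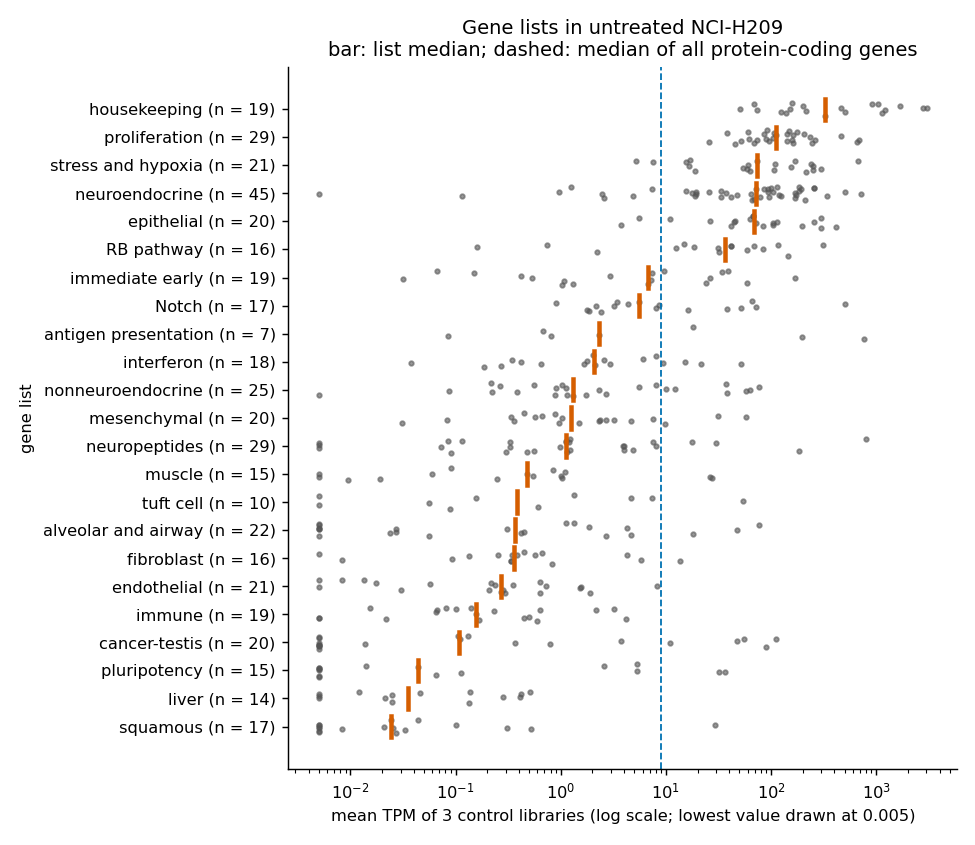
Mean TPM over the 3 untreated libraries for each single-entry member of 23 gene lists (dots, log axis), with the median of each list (bar) and of all single-entry protein-coding genes (dashed line, 9.05 TPM). The housekeeping, proliferation, stress, neuroendocrine, epithelial and RB pathway lists have medians above that of all genes, and the squamous, liver, pluripotency, cancer-testis, immune and endothelial lists lie below 0.3 TPM.

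Programmes of other lineages were mostly near the floor. Of 17 squamous genes, 15 were silent, and the summed level of the list was 15.7 to 23.1 CPM, most of it KRT10. Of 14 single-entry hepatocyte genes, 9 were silent and none reached at least 1 CPM in every library, with a summed level of 1.83 to 3.18 CPM. Of 15 muscle genes, 5 were silent, but TNNT1, a slow-muscle troponin, stood at 27.6 ± 8.34 TPM and myoglobin (MB) at 26.4 ± 4.90 TPM (SD, n = 3 each). Of 15 single-entry pluripotency genes, 10 were silent, among them LIN28A and ZFP42 at 0 counts. The other 5 reached at least 1 CPM in every library, and the summed level of the list was 98.4 to 105 CPM. The DNA methyltransferase DNMT3B and KLF4, which other cells also use, stood at 36.8 ± 3.39 and 31.7 ± 1.02 TPM. SALL4 stood at 5.37 ± 1.39 TPM and LIN28B at 5.26 ± 0.760 TPM, and SOX2 had 58, 20 and 27 counts.

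Markers of other cells that a culture might hold were low as well. Of 19 single-entry genes of blood cells, 9 were silent and 2 reached at least 1 CPM in every library, and their summed level was 8.49 to 10.1 CPM. The highest were CD79A of B cells with 49, 23 and 30 counts (4.18 ± 1.32 TPM) and CD8A of T cells with 48, 59 and 80 counts (3.24 ± 0.848 TPM; SD, n = 3 each). CD3D of T cells and NKG7 of cytotoxic cells were at 0 counts. Of 21 endothelial genes, 7 were silent and 3 reached at least 1 CPM in every library, with a summed level of 29.5, 23.5 and 19.2 CPM in replicates 1, 2 and 3. The 3 highest were present in every library, with 149, 126 and 154 counts for the adhesion molecule ICAM2 (8.28 ± 0.262 TPM; SD, n = 3), 159, 75 and 87 for VWF and 70, 64 and 55 for ERG. The endothelial receptors KDR (37, 27 and 2 counts), TEK (31, 24 and 0 counts) and FLT1 (30, 28 and 0 counts) were counted in replicates 1 and 2 but hardly in replicate 3. TEK had 25, 23 and 2 opposite-strand reads and FLT1 44, 17 and 6, and KDR belongs to a set of genes with such reads that is described at the end. Of 16 fibroblast genes, 2 were silent and 4 reached at least 1 CPM in every library. Their summed level was 49.1 to 65.2 CPM, of which FBLN1 made up 25.5 to 30.4 CPM. Some members were at the floor in replicate 3 alone, among them DCN (27, 39 and 0 counts) and LUM (20, 19 and 0). COL1A2 (33, 23 and 3) and COL3A1 (22, 22 and 3) were too. At most 1.49% of the reads of these 4 genes lay on the opposite strand. Others, such as COL6A1 (86, 153 and 114) and COL6A3 (42, 43 and 33), were counted in all 3 libraries. The origin of this difference was not tested.

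Cancer-testis antigens, which normal tissue outside the germ line rarely expresses, formed an expressed and a silent group. Of 20 single-entry members, 6 reached at least 1 CPM in every library and 12 had at most 3 counts in each. MAGEA3 stood at 114, 107 and 110 TPM, MAGEA6 at 93.9, 88.2 and 84.4 TPM and MAGEA4 at 61.6, 51.7 and 52.0 TPM. MAGEA1, MAGEC2, CTAG1B and SYCP1 were at 0 counts. MAGEA3 and MAGEA6 are near-identical copies, so the division of reads between them is uncertain.

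Antigen presentation could be read only in part, because 18 of its 25 listed genes have a second entry. B2M, the light chain of class I molecules, was counted at 93.5, 84.5 and 84.3 CPM in spite of it. TAP1, PSMB8 and PSMB9 were listed at 0 to 1 counts. Among single-entry members, calreticulin (CALR) stood at 768 ± 76.3 TPM, PDIA3 at 197 ± 9.46 TPM and ERAP1 at 18.1 ± 0.807 TPM, while CIITA, the switch of class II genes, stood at 0.0854 ± 0.0304 TPM. On the opposite strand lay 28.8% of the reads of ERAP1 and 96.6% of those of CIITA.

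Around the start of transcription, expressed genes held more CG dinucleotides than silent genes. RefSeq (GRCh38.p14) gave a window of 300 bases, 250 before and 50 after the start, for 10408 single-entry protein-coding genes. Expressed genes (6863) had a median of 27 CG dinucleotides in it and silent genes (2327) a median of 5, against 23 over all. The letters TATAAA, on either strand, stood in 4.97% of the windows of expressed genes, in 21.4% of those of silent genes and in 9.78% of all. For illustration, the 150 bases before the RefSeq start are given for 2 genes that were expressed, MYCL (chr1:39901918-39902067, minus strand) and SYP (chrX:49200194-49200343, minus strand). The same stretch is given for 2 that were silent, the basal keratin gene KRT5 (chr12:52520395-52520544, minus strand) and CD3D (chr11:118342706-118342855, minus strand). RefSeq and GENCODE place some starts differently: the MYCL stretch lies inside the gene as GENCODE bounds it, and the SYP stretch overlaps that gene's outermost bases. CG dinucleotides are in capitals.
MYCL: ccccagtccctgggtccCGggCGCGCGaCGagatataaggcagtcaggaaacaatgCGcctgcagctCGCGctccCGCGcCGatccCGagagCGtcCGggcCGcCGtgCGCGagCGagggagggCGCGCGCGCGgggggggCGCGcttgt
SYP: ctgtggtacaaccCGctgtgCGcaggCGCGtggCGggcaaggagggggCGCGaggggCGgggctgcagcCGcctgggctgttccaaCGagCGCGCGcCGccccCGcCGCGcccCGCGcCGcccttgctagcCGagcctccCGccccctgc
KRT5: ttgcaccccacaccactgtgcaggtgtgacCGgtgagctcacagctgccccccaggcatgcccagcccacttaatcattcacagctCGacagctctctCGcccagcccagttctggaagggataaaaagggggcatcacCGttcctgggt
CD3D: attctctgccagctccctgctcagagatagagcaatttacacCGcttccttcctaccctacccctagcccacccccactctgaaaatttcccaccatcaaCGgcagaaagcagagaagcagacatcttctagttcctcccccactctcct
These stretches hold 26, 22, 4 and 2 CG dinucleotides in that order. They were chosen after the levels were seen, and a count of letters says nothing of methylation, which was not measured here.

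The 3 libraries were alike, but replicate 1 stood apart from the others. Over 12375 genes of any type with a mean of at least 5 CPM, the median coefficient of variation of CPM was 8.01%, beside 3.84% from counting error alone. The biological coefficient of variation from edgeR was 11.4% over all 3 libraries and 4.46% for replicates 2 and 3 without replicate 1. Across the 17311 genes with a mean of at least 1 CPM, log2 CPM of replicates 2 and 3 correlated at r = 0.993, and replicate 1 correlated at 0.987 with replicate 2 and at 0.984 with replicate 3. No pair was alike within counting error: the chi-square statistic of the counts, divided by its degrees of freedom, was 5.75 for replicates 2 and 3 and 15.9 and 16.1 for replicate 1 against each of them. The correlations describe genes of the same cells, which are not independent.

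Of the 12375 genes, 149 (1.20%) had a highest library at least 2-fold above the lowest, and 108 of them were protein-coding. Replicate 1 was the lowest library for 111 of the 149 and the highest for 34. Between replicates 2 and 3 alone, 8 of the 12375 genes were past 2-fold. ALK, a receptor tyrosine kinase, had the largest ratio among protein-coding genes, with 9.500, 5.54 and 0.0523 CPM, from 182, 96 and 1 counts. Replicate 3 was thus at the floor for ALK.

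Genes low in replicate 1 included BHLHE40, a repressor of the circadian clock, at 2.09, 9.64 and 14.9 CPM. NR1D1, the clock repressor REV-ERB alpha, stood at 3.29, 10.5 and 9.41 CPM. GIPR, the receptor of a gut hormone, stood at 2.92, 10.5 and 9.20 CPM, and AMN at 2.04, 7.28 and 6.85 CPM. For these genes replicate 1 lay well below both other libraries, which were close to each other except for BHLHE40. HOXA13, a homeobox factor of posterior tissues, stood at 2.45, 4.91 and 8.26 CPM. Genes high in replicate 1 included TNFSF15, a cytokine of the tumour necrosis factor family, at 23.8, 6.81 and 7.27 CPM. EGR1, an immediate early factor, stood at 10.6, 6.29 and 2.51 CPM.

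Hypoxia-response genes and mitochondrial genes were ordered differently across the libraries. All 13 hypoxia-response members of the stress list were highest in replicate 3 and 12 were lowest in replicate 1, against 26.2% and 47.8% of the 12375 genes. Of these 13, CA9, a carbonic anhydrase, stood at 4.33, 6.01 and 12.1 CPM, ANKRD37 at 6.21, 13.3 and 17.8 CPM and P4HA1, a collagen hydroxylase, at 80.3, 155 and 169 CPM. The glycolytic enzymes of the list differed less: LDHA stood at 459, 547 and 597 CPM and PGK1 at 343, 322 and 360 CPM. By contrast, all 13 protein-coding genes of the mitochondrial genome were highest in replicate 1, with MT-CYB at 1972, 1131 and 877 CPM. Of 72 cytosolic ribosomal protein genes above the floor, 65 were lowest in replicate 1 and 61 were highest in replicate 3. That order was thus not particular to the hypoxia-response genes. What set replicate 1 apart was not tested, and the labels give no batch.

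**Figure D4:**
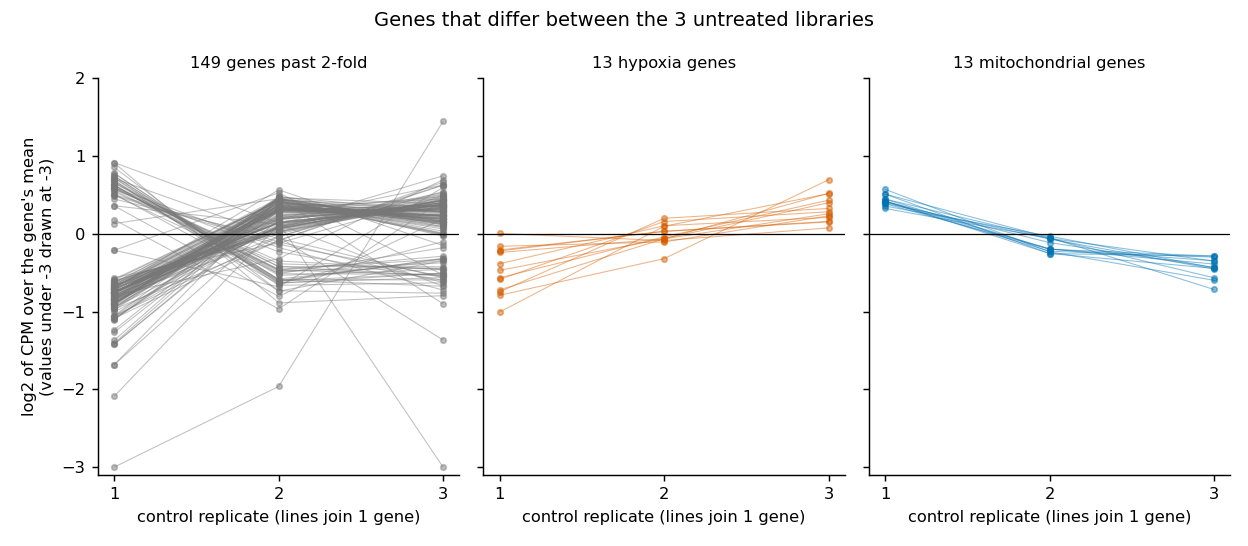
Log2 of each library's CPM over the gene's mean, for the 149 genes past 2-fold (left), 13 hypoxia-response genes (centre) and 13 mitochondrial protein-coding genes (right), with a line per gene and values under -3 drawn at -3. Most of the 149 genes have replicate 1 at 1 end and replicates 2 and 3 together at the other.

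None of the 3 marker genes that could be read and none of the 38 neuroendocrine genes with a mean of at least 5 CPM was past 2-fold. The same held for the 19 epithelial and 29 proliferation genes with such a mean. Since 1.20% of all 12375 genes were past 2-fold, lists of this size would hold few or none by that share alone. Neuroendocrine genes below 5 CPM, such as TUBB3 (57, 57 and 61 counts) and RET (71, 32 and 4 counts), were not covered. In the stress and hypoxia list 4 of 20 genes were past 2-fold, namely CA9, ANKRD37, P4HA1 and the chaperone gene DNAJB1.

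Many genes carried reads on the opposite strand. Of 13600 protein-coding genes with at least 60 reads on both strands together, 1967 (14.5%) had over 25% of these on the strand opposite to the gene. Exons of an annotated gene on the other strand overlapped 64.0% of these 1967 genes and 36.5% of the remaining 11633. The minimum of 60 reads counts both strands, so a silent gene could enter only through its opposite-strand reads. Silent genes made up 410 of the 1967 and 0 of the 11633. BEST1, a chloride channel gene (chromosome 11, positions 61949821 to 61965515), had the most such reads, 48861 against 1006 on its own strand. FTH1, which encodes ferritin heavy chain, lies across it on the other strand. SH3D19 (32982 against 1697) lies across RPS3A, ENOSF1 (19326 against 5474) across TYMS, and ATG10 (16672 against 791) across RPS23. TTN, the titin gene (chromosome 2, positions 178525989 to 178830802), had 11989 opposite-strand reads and 117 on its own strand, and its exons overlap those of TTN-AS1, which had 3679 counts on its own strand. LRRC75A and FSIP2 likewise faced antisense genes. MT-ND6, the protein-coding gene on the light strand of the mitochondrial genome, had 43428 opposite-strand reads against 21007 and no annotated exon across it.

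Counts without regard to strand would include these reads, and some of the lists above hold them. In the neuroendocrine list, 2 of 43 genes with enough reads passed the 25% threshold, SSTR2 with 79.7% and RET with 55.4% of reads on the opposite strand. No marker, epithelial or proliferation gene did. In the alveolar and airway list 6 of 12 did, and in the endothelial list 7 of 10. AVIL, second highest of the tuft cell list at 7.44 ± 1.92 TPM (SD, n = 3), had 56.0% of its reads on the opposite strand.

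A smaller set of genes had opposite-strand reads in replicates 1 and 2 alone. By a rule chosen after the values were seen, at least 10 opposite-strand reads in both of these libraries and at most 1 in replicate 3, there were 79 such genes, 78 of them protein-coding, or 0.391% of all 19969 protein-coding genes. The same rule gave 9 genes for replicates 1 and 3 and 10 for replicates 2 and 3. The 79 genes held 2457, 1705 and 24 opposite-strand reads in replicates 1, 2 and 3. They included 16 of 75 genes listed as common targets of cancer DNA panels, among them MET, KIT, FGFR2, ALK and ROS1. That list was also chosen with earlier results of these libraries known, so the overlap is a description only. The other pairs of libraries gave 0 panel genes, but their 9 and 10 genes are too few for a comparison. Exons on the other strand overlapped 15 of the 79.

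For 25 of the 79 genes replicate 3 was at or under 3 counts on the gene's own strand too, while replicates 1 and 2 had 7 to 182 and 5 to 96 counts. ALK had 178, 121 and 0 opposite-strand reads beside its 182, 96 and 1 counts. FGFR2, a fibroblast growth factor receptor, had 79, 44 and 0 beside 85, 56 and 0. Other members kept similar counts in replicate 3: KIT, the stem cell factor receptor, had 75, 48 and 0 opposite-strand reads beside 749, 791 and 857 counts. The low levels of ALK, FGFR2, ROS1, PDGFRB and KDR in these cells thus rest on replicates 1 and 2, and where those reads came from was not tested.

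**Figure D5:**
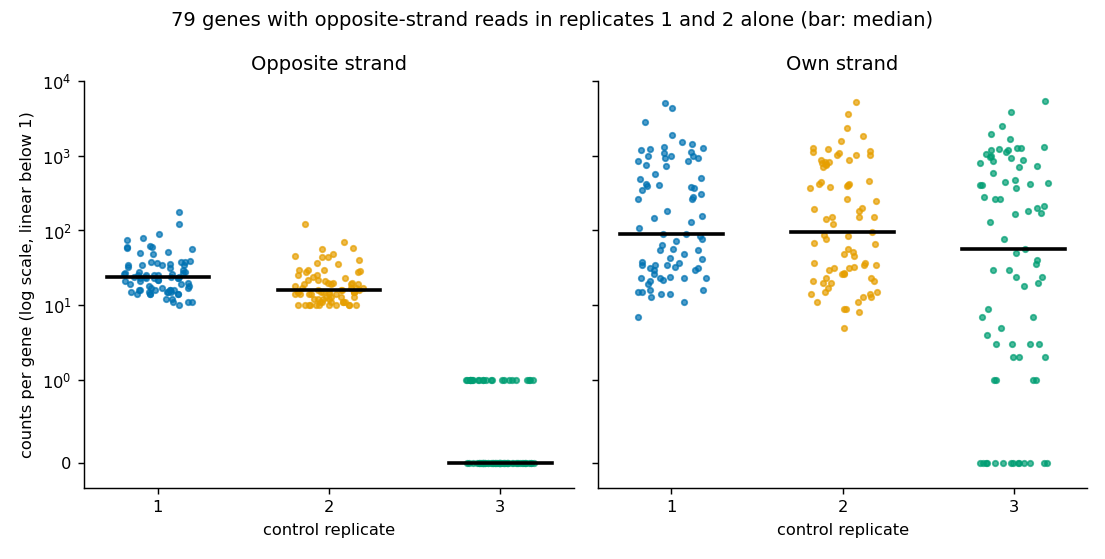
Counts per gene in each untreated library for the 79 genes with opposite-strand reads in replicates 1 and 2 alone, on the opposite strand (left) and on the gene's own strand (right), on a log axis that is linear below 1. Opposite-strand medians are 24, 16 and 0, and own-strand medians are 91, 96 and 57 in replicates 1, 2 and 3.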

How the data were processed

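Total RNA of NCI-H209 cells was depleted of ribosomal RNA and made into directional libraries. The submitters' processing notes name CASAVA 1.8, STAR 2.6.1b, DESeq2 and GRCh38. The authors deposited counts of reads per gene in STAR's layout, and column 4, the strand of these libraries, was used for levels, column 3 for opposite-strand reads and column 2 as an alternative. Of the table of the comparison, its gene names were used, and the mean signal of the controls deposited there (counts after size factors, the authors' mean) served only as a check of the column: the mean made here from column 4 was 1.06 times it at the median of 19449 genes. Its fold changes and p-values were not used. Names that a spreadsheet had turned into dates (27) were replaced by those of GENCODE release 29, which also gave positions, types and exon lengths (58780 of 64837 entries). Exon lengths are the union over isoforms, so TPM is low for genes with long rare exons. Second entries were found from the release's transcript names and the deposited names.

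CPM divides by the column total on genes. The members and the 28 lists were chosen with earlier results of these data known. Named were the markers, the highest genes, the 3 highest and up to 4 silent members of each list, the 8 most variable and the 8 with most opposite-strand reads, genes the study names where listed, and others to illustrate a point, chosen after their values were seen. Results of some genes are not reported here. With 1 group there is no test. The biological coefficient of variation came from edgeR 4.0.16 (TMM, filterByExpr). On simulated libraries with a true value of 10% it was estimated at 10.04%, and 200 of 200 genes raised in a library were found past 2-fold with 2 others. How the 2-fold rule performs on rises close to 2-fold was not tested. Figures used matplotlib 3.10.9.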

Additional observations from a re-analysis of the deposited data

How the results depend on the processing

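Of 45 alternative values for the counts of expressed, silent, 2-fold and opposite-strand genes and for the spread, 35 stayed near the main one (counts within 1.5 times). Requiring 0 counts left 3268 silent protein-coding genes in place of 5114, second entries included. Genes past 2-fold numbered 1011 with a mean of at least 1 CPM and 68 with at least 10 CPM, and from 6 (without replicate 1) to 102 when a library was left out. Opposite-strand genes numbered 3103 over 10%, 1265 over 50%, 1157 with at least 300 reads, 709 without genes facing annotated exons, and 1748 to 1777 when a library was left out. The biological coefficient of variation ran from 4.46% (without replicate 1) to 13.98%. Leaving out a library gave 12444 to 12598 expressed and 5251 to 5299 silent genes. The settings on second entries, on replicates 1 and 2 and on facing exons were added after seeing the data. Of 66 alternative values for 11 named levels, 65 moved by at most 1 SD, and unstranded counts lowered NCAM1 to 471 CPM. No paired analysis was possible because all samples belong to 1 group. Depth limits statements on genes under 0.173 CPM, and second entries limit those on the genes they touch. The cause of these changes was not tested, except that stricter thresholds leave fewer genes by construction.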

Other observations

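The integrated stress and interferon genes gave a further view of the resting cells. All 21 single-entry members of the stress and hypoxia list reached at least 1 CPM in every library, with a median of 73.4 TPM. ATF4, the factor of the integrated stress response, stood at 676, 718 and 641 TPM, and its target TRIB3 at 106 ± 3.12 TPM (SD, n = 3). Of 18 single-entry interferon-stimulated genes, 10 reached at least 1 CPM in every library, at a median of 2.07 TPM. OAS3 stood at 24.0, 20.3 and 19.7 TPM, while IFI44L had 2, 3 and 1 counts. Among immediate early genes, 11 of 19 reached at least 1 CPM in every library. JUN led at 156, 187 and 160 TPM, FOS stood at 6.79 ± 1.73 TPM, and FOSL1 had 0, 0 and 1 counts.

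Some non-coding genes also differed between the libraries. MT-RNR2, the large mitochondrial ribosomal RNA, stood at 0.104, 1.56 and 16.6 CPM in replicates 1, 2 and 3. These libraries were depleted of ribosomal RNA, and its level was opposite in order to that of the mitochondrial mRNAs. SLC2A1-AS1, a non-coding gene named after the glucose transporter gene SLC2A1, stood at 5.32, 19.5 and 26.4 CPM, and SLC2A1 itself at 114, 159 and 172 CPM. These genes were named after their values were seen.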
